A study of Homo sapiens with 12 samples.

Results

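Long noncoding RNAs and transcripts that host small nucleolar RNAs were examined in human HEL cells in which the kinase JAK2 had been knocked down. From a list of 7 genes (SNHG3, LINC00680, NEAT1, TUG1, MALAT1, GAS5 and KCNQ1OT1), every probe set that the platform annotation gives to 1 of these genes alone was taken. This gave 6 probe sets for 4 of the 7 genes, out of 22930 probe sets in the deposited table: 1 each for SNHG3, LINC00680 and NEAT1, and 3 for TUG1. MALAT1, GAS5 and KCNQ1OT1 had no probe set of their own and were not analysed here. SNHG3, LINC00680 and NEAT1 were listed because they had been seen to fall in these data, so their knockdown-against-control values are given as a description, without a test.

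HEL is an established acute myeloid leukaemia line with erythroid features, homozygous for an activating JAK2 mutation per the labels, and all groups share that background. Cells were infected with a lentivirus carrying a puromycin-resistance gene and 1 of 4 constructs: the JAK2 hairpin Jak2-10, the JAK2 hairpin Jak2-9, a luciferase hairpin (Luc), or a GFP construct that the labels call both a vector control and a control hairpin. Each group had 3 Affymetrix arrays, made from 20 ng of amplified total RNA, so 6 knockdown arrays were set against 6 control arrays. Nothing in the labels says that replicates came from separate cultures, so a p-value here reflects only how these 12 arrays scatter, which may be technical scatter. No time of harvest was found in the labels.

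A long noncoding RNA is a transcript with no recognised protein product that acts as RNA or through its transcription. SNHG3 is spliced and carries the small nucleolar RNAs SNORA73A and SNORA73B in its introns; small nucleolar RNAs guide chemical modification or cleavage of ribosomal RNA, and the spliced host RNA is usually left to rapid decay. NEAT1 is the scaffold of paraspeckles, nuclear bodies that also hold the RNA-binding proteins NONO, SFPQ and PSPC1. TUG1 is a nuclear and cytoplasmic RNA first described in the developing mouse retina, and RefSeq now lists its gene as protein coding; LINC00680 is an intergenic RNA whose function is little described. In HEL cells, constitutive JAK2 signalling acts largely through STAT transcription factors.

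RefSeq start-site windows (GRCh38.p14, 250 bases before to 50 bases after the annotated start) were given for SNHG3 and TUG1, which are shown because they are the measured genes with a window and because a motif search gave different matches in each. The motifs, searched on both strands, were the STAT consensus TTCNNNGAA, the E-box CACGTG and the CCAAT box CCAAT; they do not overlap in either window, and capitals mark every match. The SNHG3 window is chr1:28505693-28505992 and the TUG1 window chr22:30969015-30969314, both on the plus strand.
SNHG3: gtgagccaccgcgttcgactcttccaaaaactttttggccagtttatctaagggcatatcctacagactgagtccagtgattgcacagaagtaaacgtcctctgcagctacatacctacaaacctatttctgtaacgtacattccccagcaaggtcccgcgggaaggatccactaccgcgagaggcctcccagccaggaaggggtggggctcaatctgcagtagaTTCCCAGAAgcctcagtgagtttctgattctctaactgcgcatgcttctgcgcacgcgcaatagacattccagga
TUG1: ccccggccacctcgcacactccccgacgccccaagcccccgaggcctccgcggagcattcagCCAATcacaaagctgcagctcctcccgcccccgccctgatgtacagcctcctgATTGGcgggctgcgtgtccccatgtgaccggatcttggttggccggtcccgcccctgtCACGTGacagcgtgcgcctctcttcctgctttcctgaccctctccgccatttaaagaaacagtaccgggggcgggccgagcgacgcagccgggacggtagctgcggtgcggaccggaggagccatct
The SNHG3 window holds 1 STAT consensus, TTCCCAGAA, beginning at position -25 relative to the start. The TUG1 window holds an E-box at position -77, a CCAAT box at position -188 and another on the opposite strand at position -135. Of 35116 RefSeq windows of the same length, 7.66% hold TTCNNNGAA, 7.26% CACGTG and 34.6% CCAAT. A match describes the letters of the window and is not evidence of binding.

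JAK2 was lower on the knockdown arrays at both of its probe sets. At 205842_s_at the log2 intensity was 10.06, 10.04 and 9.78 with Jak2-10 and 9.37, 9.89 and 10.09 with Jak2-9, against 10.47, 10.63 and 10.56 with Luc and 10.47, 10.40 and 10.68 with GFP. The mean difference was -0.67 ± 0.11 on the log2 scale (SE), or 63.1% of control, with a limma adjusted p of 0.00260; 205841_at gave -0.73 ± 0.17 (adjusted p = 0.0319). Against the controls, Jak2-9 alone passed at 205842_s_at (-0.75, adjusted p = 0.00568) and 205841_at (-0.84, adjusted p = 0.0412), while Jak2-10 alone did not (-0.58, adjusted p = 0.0555, and -0.63, adjusted p = 0.328). With a single control, 205841_at no longer passed (adjusted p = 0.162 with GFP and 0.116 with Luc), and 205842_s_at did (0.0315 and 0.0111). At each of the probe sets the groups did not overlap. Median intensity was 44.9 to 49.1 over the 12 arrays, and 3 arrays per group limit the precision. Within-group correlations of the arrays were 0.995 to 0.997 for Jak2-10, 0.985 to 0.997 for Jak2-9, 0.996 to 0.997 for Luc and 0.996 to 0.997 for GFP. Jak2-9 replicate 1 stood apart: 592 probe sets were over 2-fold off the mean of the other Jak2-9 arrays, 546 of them lower, where this number was 0 to 36 on the other arrays. Knockdown-against-control differences of the listed genes and JAK2 are therefore given with and without it. For JAK2, the mean of the 5 remaining knockdown arrays minus the control mean was -0.55 at 205841_at and -0.56 at 205842_s_at. The groups still did not overlap. At 205841_at the Jak2-9 arrays read 7.11, 8.35 and 8.40, so replicate 1 pulls the Jak2-9 mean down there.

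SNHG3, the host transcript, was lower on every knockdown array. At 215011_at, the log2 intensity was 5.66, 5.92 and 5.67 with Jak2-10 and 5.68, 6.13 and 5.52 with Jak2-9. It was 7.31, 7.41 and 6.94 with Luc and 7.09, 7.24 and 6.84 with GFP. Every knockdown array was below every control array, with a gap of 0.71 between the highest knockdown and the lowest control value. The knockdown mean was 5.76 ± 0.22 and the control mean 7.14 ± 0.22 (SD, n = 6 arrays each). This is a log2 difference of -1.38, or 38.4% of control, and it was -1.39 for Jak2-10 and -1.37 for Jak2-9 against the controls. By group mean the order was Jak2-10 (5.75), Jak2-9 (5.77), GFP (7.06) and Luc (7.22), and the arrays overlapped within the first pair and within the last.

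LINC00680 was 3rd of 22292 probe sets by size of fall, and it was listed because it had been seen to fall. At 213605_s_at, the log2 intensity was 6.48, 6.34 and 6.44 with Jak2-10 and 4.76, 5.45 and 6.21 with Jak2-9. It was 8.70, 8.86 and 8.83 with Luc and 8.35, 7.71 and 7.93 with GFP. The knockdown arrays lay at least 1.23 below the controls, the Jak2-9 arrays spread over a wider range than the Jak2-10 arrays, and the Luc arrays were all above the GFP arrays. The knockdown mean was 5.95 ± 0.69 and the control mean 8.40 ± 0.49 (SD, n = 6 each), a log2 difference of -2.45, or 18.3% of control. The suffix _s_at of this probe set marks probes that can match more than 1 transcript. The NEAT1 probe set and 212725_s_at and 222244_s_at of TUG1 carry it too. In RefSeq the LINC00680 gene overlaps the transcribed pseudogene LINC00680-GUSBP4, so the RNA measured at 213605_s_at may come from either.

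NEAT1, the paraspeckle scaffold, had the narrowest separation of the 3 genes seen to fall. At 214657_s_at, the log2 intensity was 4.41, 4.46 and 4.47 with Jak2-10 and 4.63, 4.18 and 4.28 with Jak2-9. It was 5.31, 6.31 and 5.83 with Luc and 5.02, 5.33 and 4.72 with GFP. All knockdown values were below all control values, but the gap was 0.09, set by Jak2-9 replicate 1 and GFP replicate 3. The knockdown mean was 4.41 ± 0.16 and the control mean 5.42 ± 0.57 (SD, n = 6 each), a log2 difference of -1.01, or 49.6% of control. In linear terms the knockdown arrays read 18.1 to 24.8, where the lowest intensity in the table was 11.2, and detection calls were not used. Against GFP alone the difference was -0.62, and against Luc alone -1.41.

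**Figure D1:**
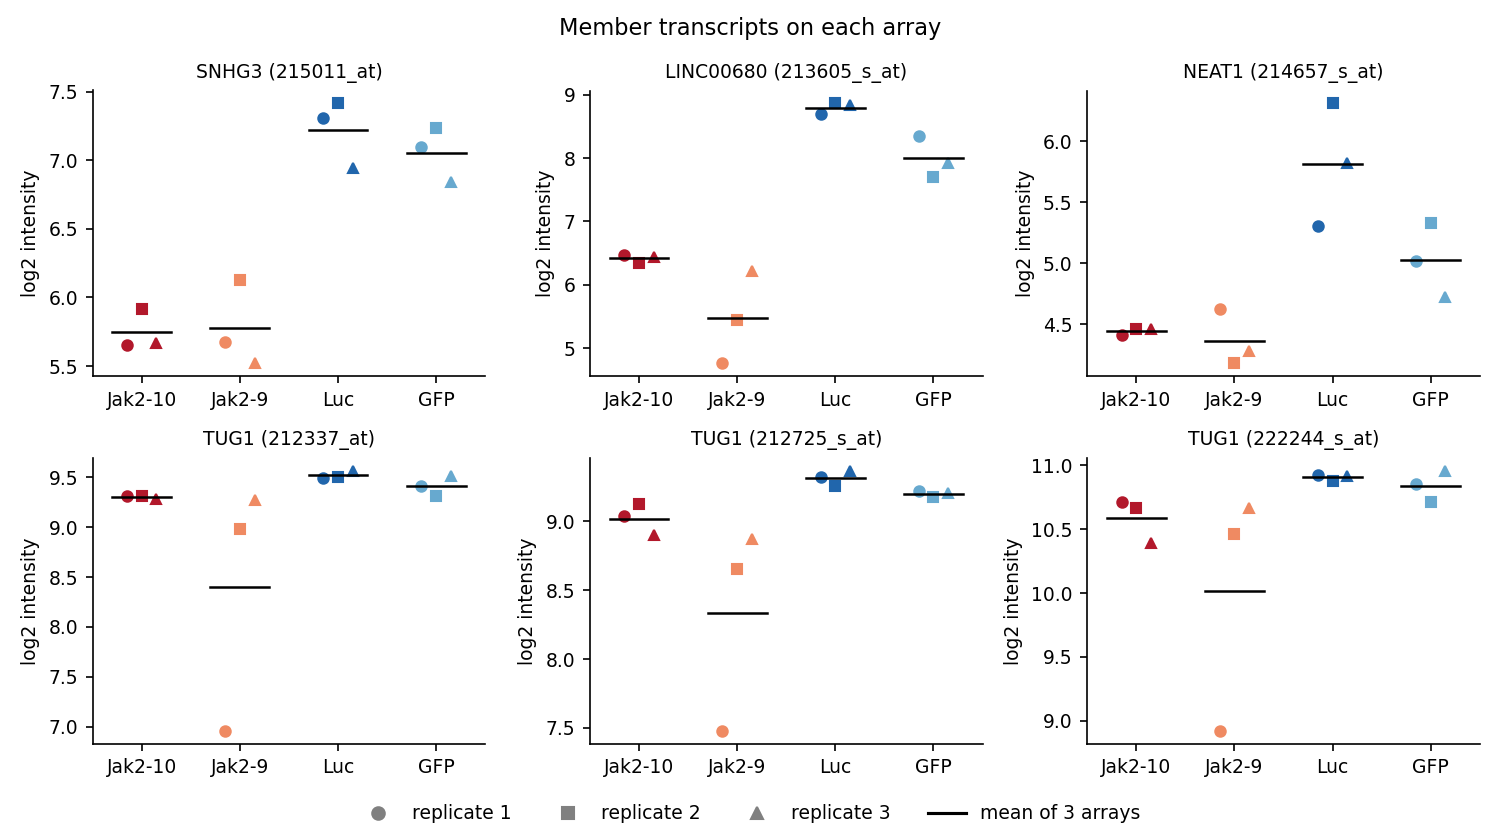
Log2 intensity (vertical axis, with its own range in each panel) of the 6 probe sets on each array, by construct, with marker shape for the replicate number and a bar at the mean of 3 arrays. The knockdown arrays lie below all controls for SNHG3, LINC00680 and NEAT1, and Jak2-9 replicate 1 lies far below the other arrays in the 3 TUG1 panels.

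Among all probe sets tested, 705 (3.16%) passed an adjusted p of 0.05 in knockdown against control, 564 (2.53%) with a fall and 141 (0.633%) with a rise, and 477 (2.14%) had all 6 knockdown arrays below all 6 controls. SNHG3, LINC00680, NEAT1 and 1 TUG1 probe set were among the 477. The first 3 genes were listed for having been seen to fall, so this lends them no support. They ranked 46th, 3rd and 104th by size of fall. The arrays measure bulk RNA per unit of total RNA, so fewer cells with a transcript and less of it per cell cannot be told apart. Without Jak2-9 replicate 1, the differences were -1.36 for SNHG3, -2.27 for LINC00680 and -1.08 for NEAT1.

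TUG1 was not described as chosen on its values, and its test in knockdown against control did not pass at any of its 3 probe sets over all arrays. At 212725_s_at, the log2 intensity was 9.04, 9.13 and 8.90 with Jak2-10 and 7.48, 8.66 and 8.87 with Jak2-9, against 9.32, 9.25 and 9.37 with Luc and 9.22, 9.18 and 9.20 with GFP. The groups did not overlap, although the gap was 0.055, and Jak2-9 replicate 1 was far below the rest. The difference was -0.58 ± 0.18 (SE), or 66.9% of control, with a limma adjusted p of 0.112 and a two-sided exact permutation p of 0.00216, the smallest that 924 arrangements allow. An exact p for 1 probe set is not adjusted for the 22292 tested.

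At the other TUG1 probe sets Jak2-9 replicate 1 was again the lowest array. At 212337_at, the values were 9.31, 9.31 and 9.29 with Jak2-10 and 6.96, 8.98 and 9.27 with Jak2-9, against 9.49, 9.50 and 9.56 with Luc and 9.41, 9.31 and 9.52 with GFP. Knockdown and control arrays met at 9.31, and 4 of 6 knockdown arrays were below all controls (-0.61 ± 0.28, 65.4% of control, adjusted p = 0.308, exact permutation p = 0.00649). At 222244_s_at, the values were 10.71, 10.66 and 10.39 with Jak2-10 and 8.92, 10.47 and 10.67 with Jak2-9, against 10.92, 10.88 and 10.92 with Luc and 10.85, 10.71 and 10.96 with GFP. Here 5 of 6 knockdown arrays were below all controls (-0.57 ± 0.22, 67.4% of control, adjusted p = 0.220, exact permutation p = 0.00433). The 3 probe sets share their arrays and their gene, and correlated at r = 0.975 to 0.984 over the 12 arrays, so they are not separate replicates of a TUG1 difference.

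Leaving out Jak2-9 replicate 1 made the TUG1 differences smaller and their spread smaller still. The log2 differences of 212337_at, 212725_s_at and 222244_s_at were then -0.25 ± 0.07 (adjusted p = 0.0649), -0.36 ± 0.07 (adjusted p = 0.00462) and -0.30 ± 0.08 (adjusted p = 0.0486, SE). Thus 2 of the 3 TUG1 probe sets, which share 1 gene, passed, both downward. In that fit 2.79% of all probe sets passed with a fall. On the array left out TUG1 was itself far below the other arrays, so these passes are not an independent test. The exact permutation p-values with 5 arrays against 6 (462 arrangements) were 0.0130 for 212337_at, 0.00433 for 212725_s_at and 0.00866 for 222244_s_at. Jak2-10 against the controls gave -0.16, -0.24 and -0.28 in the same order, none past the threshold over all arrays, where 1.3% of probe sets passed with a fall. Jak2-9 gave -1.06, -0.92 and -0.85, of which 212725_s_at passed (adjusted p = 0.0283), where 2.64% of probe sets passed with a fall; without replicate 1 it was -0.49 (adjusted p = 0.00627).

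The JAK2 hairpins were also compared directly. In which comparison SNHG3, LINC00680 and NEAT1 had been seen to fall is not stated, so their p-values here may not be independent of that choice. SNHG3 gave Jak2-10 minus Jak2-9 of -0.03 ± 0.17 (SE), with a 95% interval of -0.38 to 0.33 and an adjusted p of 0.959. NEAT1 gave 0.08 ± 0.21 (-0.37 to 0.54, adjusted p = 0.903). These intervals bound the difference and do not show that the hairpins act alike. LINC00680 was higher with Jak2-10 than with Jak2-9 on all arrays, by 0.94 ± 0.26 (0.38 to 1.50), and did not pass after adjustment (adjusted p = 0.571). The TUG1 probe sets gave 0.90 ± 0.40, 0.68 ± 0.25 and 0.57 ± 0.31 (adjusted p = 0.571, 0.571 and 0.573). Their 95% intervals were 0.04 to 1.76, 0.15 to 1.22 and -0.10 to 1.24. No probe set of the 22292 passed (0%) in limma, while 1914 (8.59%) had an unadjusted p under 0.05. Without Jak2-9 replicate 1 the LINC00680 difference was 0.59 ± 0.19 (adjusted p = 0.968).

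Between the controls, LINC00680 and NEAT1 were the members that differed most. LINC00680 gave Luc minus GFP of 0.80 ± 0.26 (SE, 95% interval 0.24 to 1.36), with all 3 Luc arrays above all 3 GFP arrays. NEAT1 gave 0.79 ± 0.21 (0.34 to 1.24), with the lowest Luc array at 5.31 and the highest GFP array at 5.33. Neither passed after adjustment (adjusted p = 1.00 for both). SNHG3 gave 0.17 ± 0.17 (-0.19 to 0.52), and the TUG1 probe sets 0.11, 0.11 and 0.07. In this comparison 0 probe sets passed in limma (0%), and 558 (2.5%) had an unadjusted p under 0.05. For NEAT1, the order of the group means was Jak2-9, Jak2-10, GFP, Luc, with the first 2 not separated; for LINC00680 it was the same, with each neighbouring pair at least 0.80 apart.

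**Figure D2:**
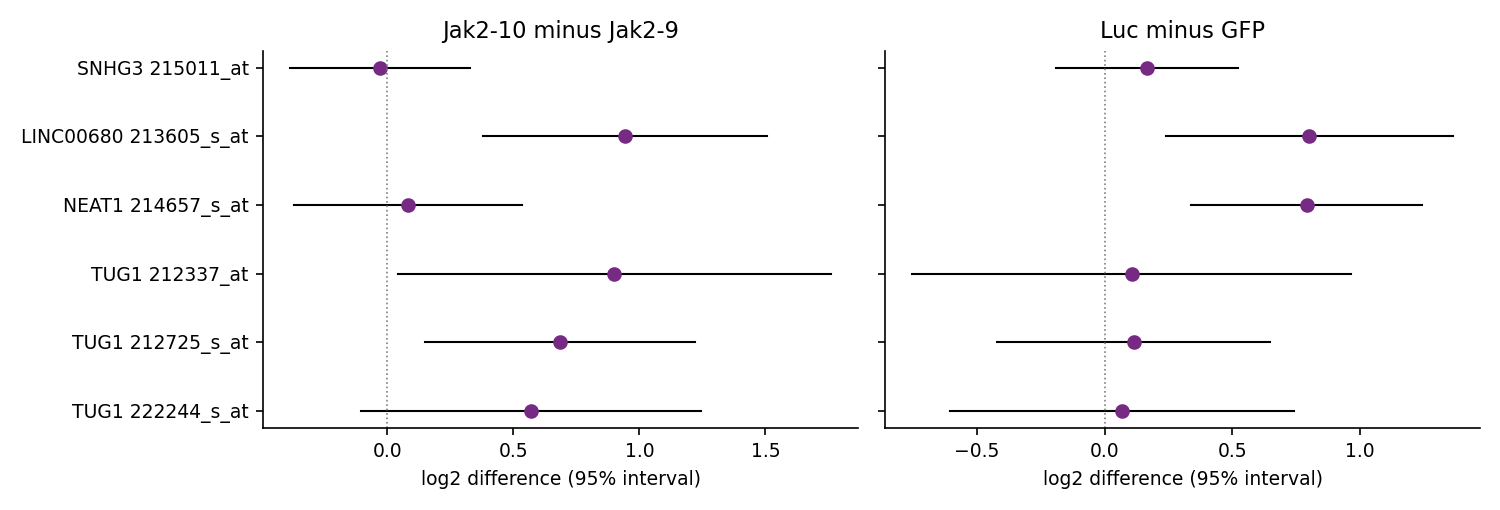
Log2 difference (horizontal axis) between the JAK2 hairpins (left) and between the controls (right) for the 6 probe sets, each point with its 95% interval from limma. The intervals of LINC00680 lie above 0 in both panels, that of NEAT1 only between the controls, and none passed after adjustment over all probe sets.

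Other transcripts that carry small nucleolar RNAs were measured in small number. Of 21 further hosts, all noncoding but for TAF1D, 2 had a probe set. TAF1D, which encodes a factor of the RNA polymerase I initiation complex, fell at both of its probe sets. At 218750_at its log2 intensity was 6.97, 6.93 and 6.89 with Jak2-10 and 7.45, 6.61 and 7.24 with Jak2-9, against 8.33, 8.33 and 8.20 with Luc and 8.13, 7.90 and 7.55 with GFP. The groups did not overlap, and the difference was -1.06 ± 0.13 (SE, adjusted p = 0.000206); 221580_s_at gave -0.43 ± 0.07 (adjusted p = 0.00171). SNHG20 fell by 0.37 on the log2 scale (SE 0.09, adjusted p = 0.0380), but its groups overlapped. The highest knockdown array read 5.42 and the lowest control array 5.25. Its group means were 4.98 with Jak2-10, 5.27 with Jak2-9, 5.62 with Luc and 5.36 with GFP. Over these 3 probe sets the median log2 difference was -0.43, where that of all 22292 probe sets was 0.03. All 3 passed with a fall, where 2.53% of all probe sets did, but they belong to only 2 genes. This list and those below were drawn up with earlier results of these data known, so their shares are descriptions.

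Protein-coding hosts, most of them translation or ribosome factors, were measured more fully. Of 27 probe sets for 14 of 16 listed genes, 1 fell, none rose, and the median log2 difference was 0.06. The share past the threshold, 3.70%, is near the 3.16% of all probe sets. The 1 that fell was 214805_at of EIF4A1, a translation initiation helicase, at -0.86 ± 0.12 (SE, adjusted p = 0.000736), while the other EIF4A1 probe sets gave 0.07 and 0.08. The proteins that assemble and form small nucleolar ribonucleoproteins had 0 of 19 probe sets past the threshold and a median of 0.07. RUVBL2 (0.26, adjusted p = 0.176) and NHP2 (0.17, adjusted p = 0.336) had the lowest p-values there.

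Paraspeckle proteins, the partners of NEAT1, showed differences at some probe sets of a gene and not at others. Of 46 probe sets for 16 of 17 listed genes, 6 fell and none rose, with a median of -0.02. The share past the threshold was 13.0%, where it was 3.16% over all probe sets. Because the list was drawn up with earlier results of these data known, that share is a description. The 6 belong to SFPQ, HNRNPA1, PSPC1 and TARDBP, all RNA-binding proteins, and none is the brightest probe set of its gene. At 221768_at of SFPQ, the log2 intensity was 7.48, 7.45 and 7.05 with Jak2-10 and 5.93, 6.91 and 6.86 with Jak2-9, against 8.78, 8.96 and 9.12 with Luc and 8.74, 8.69 and 8.58 with GFP. The groups were well apart, at -1.87 ± 0.15 (SE, adjusted p = 5.11e-06), and 214016_s_at gave -0.59. The brightest SFPQ probe set gave 0.03, with an adjusted p of 0.847.

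HNRNPA1 had the same split. Its probe set 222040_at read 5.95, 6.29 and 5.49 with Jak2-10 and 5.17, 5.61 and 5.36 with Jak2-9, against 7.92, 7.96 and 8.20 with Luc and 8.01, 7.73 and 6.82 with GFP. The difference was -2.13 ± 0.18 (SE, adjusted p = 8.46e-06), and 221919_at gave -1.96, while the remaining HNRNPA1 probe sets lay between -0.16 and 0.00. PSPC1 gave -1.26 at 215083_at and -0.12 at its brightest probe set, and TARDBP -0.69 and -0.09. DAZAP1 (-0.20, adjusted p = 0.253) and ZNF24 (-0.30, adjusted p = 0.293) had the lowest p-values among brightest probe sets, and neither passed. Which transcripts each of these probe sets detects was not tested, and such a split cannot be seen for SNHG3, LINC00680 or NEAT1, which have 1 probe set each.

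**Figure D3:**
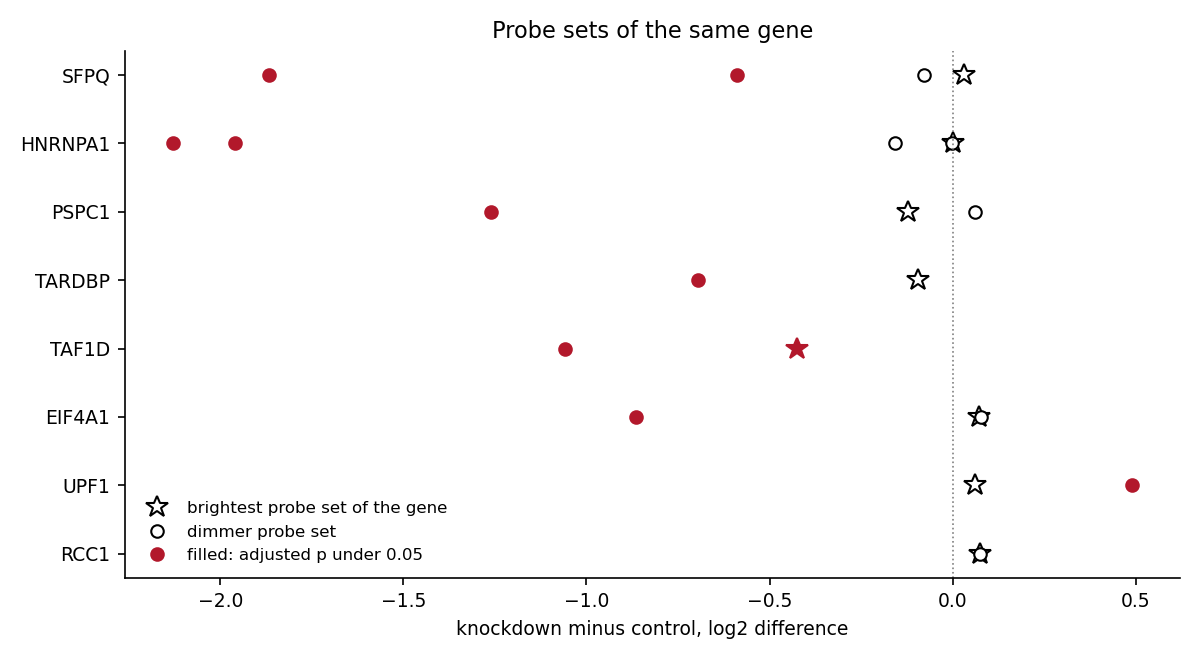
Knockdown-minus-control log2 difference (horizontal axis) of every probe set of 8 genes from the lists, with a star for the brightest probe set of a gene and red fill for an adjusted p under 0.05. For SFPQ, HNRNPA1, PSPC1, TARDBP and EIF4A1 the filled points are dimmer probe sets while the star lies near 0, and for TAF1D both are filled.

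Nonsense-mediated decay degrades many spliced host RNAs. Of 22 probe sets for its factors, 1 passed the threshold (4.55%), near the 3.16% of all probe sets. The 1 that passed was 208947_s_at of UPF1, the central helicase of the pathway. It rose by 0.49 ± 0.09 (SE, limma adjusted p = 0.00777), while the brighter UPF1 probe set gave 0.06. SMG9 (0.30, adjusted p = 0.119) and DCP2 (-0.26, adjusted p = 0.134) did not pass, and the list's median was 0.01. Of the genes next to the listed ones in the genome, 0 of 20 probe sets passed, where 3.16% of all probe sets did. Most of the 20 are of KCNQ1, CDKN1C, PHLDA2 and NAP1L4, near KCNQ1OT1, which was not analysed. None is of a neighbour of LINC00680, so the surroundings of the measured genes were covered only in part. RCC1, the nuclear exchange factor for Ran whose gene overlaps that of SNHG3 in RefSeq, gave 0.07 ± 0.06 and 0.08 ± 0.08 at its probe sets (SE, adjusted p = 0.608 and 0.671). MORC2, next to TUG1, gave 0.02 and -0.06, NAP1L4 0.16 and FRMD8 0.22.

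Few other long noncoding RNAs passed the test. In the list of other well-known ones, 0 of 9 probe sets for 5 of 34 genes passed, with a median of 0.13, where 3.16% of all probe sets passed. With 9 probe sets a count of 0 is near that share and does not show that these genes were unchanged. MEG3 (0.19, adjusted p = 0.263) and TP53TG1 (0.18, adjusted p = 0.312) had the lowest p-values. Over the 75 measured genes that RefSeq types as long noncoding, without the 7 genes of the opening list and genes that mark sex, a list drawn up after the values were seen that includes those 5 genes and SNHG20, 3 of 94 probe sets fell (3.19%) and none rose, with a median of 0.03, where 2.53% of all probe sets fell. The 3 are THAP9-AS1 at -0.69 ± 0.13 (SE, adjusted p = 0.00721), SND1-IT1 at -0.42 ± 0.08 (adjusted p = 0.00841) and SNHG20. That share is near the background. Without Jak2-9 replicate 1 the number of probe sets that rose or fell was the same in each list described here, except that 4 of these 94 then fell.

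**Figure D4:**
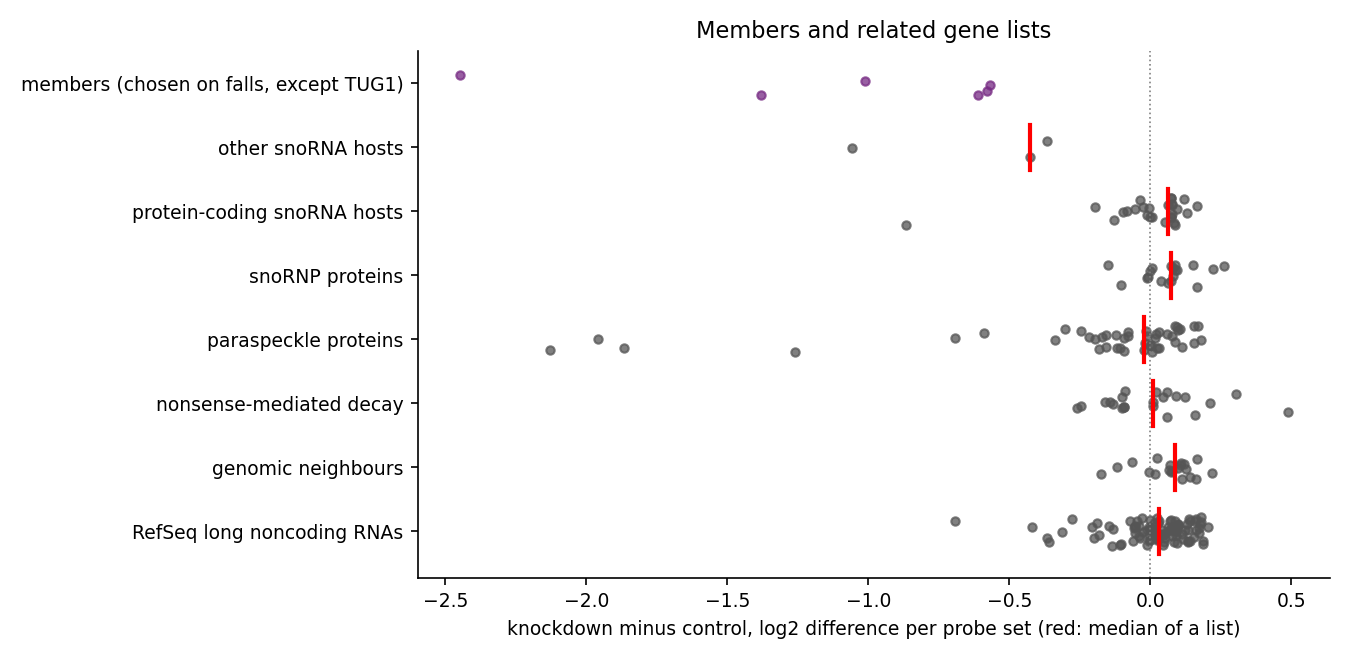
Knockdown-minus-control log2 difference (horizontal axis) of each probe set, for the listed genes and the related lists, with a red bar at the median of each list and vertical scatter for visibility only. The list medians lie near 0 except for the 3 probe sets of other snoRNA hosts (-0.43), and the 6 paraspeckle probe sets that fell stand left of the rest of their list.

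Some other genes followed the same pattern over the 12 arrays, by Pearson correlation of log2 intensity. For SNHG3 the closest were ANKRD36B (r = 0.962) and MAN2A2, a Golgi mannosidase (r = 0.951). For LINC00680 they were GOLGA8A (208798_x_at, r = 0.991) and RFX3, a transcription factor of ciliated cells (r = 0.987). For NEAT1 they were GOLGA8A again, at 210424_s_at (r = 0.949), and TMEM163 (r = 0.948). ANKRD36B and GOLGA8A have near-identical paralogs that could share their probes, so which copy was measured is uncertain. These values share the group difference: once each group's mean was removed, r was 0.664 and 0.352 for the SNHG3 pair, 0.905 and 0.763 for LINC00680, and 0.658 and 0.730 for NEAT1. For TUG1 (222244_s_at), RBBP6 and KIF5B (both r = 0.991) kept r = 0.994 and 0.991 after the group means were removed, which Jak2-9 replicate 1 dominates. SNHG3 and LINC00680 correlated at r = 0.875 with each other and at r = -0.23 after removal.

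The array's control probe sets differed between the groups as well. The human Alu probe set read 14.15, 14.15 and 14.01 with Jak2-10 and 13.97, 13.94 and 14.13 with Jak2-9, against 14.63, 14.68 and 14.67 with Luc and 14.64, 14.52 and 14.50 with GFP. The groups did not overlap, at a log2 difference of -0.55, or 68.3% of control (exact permutation p = 0.00216). The 5′ probe set of 18S ribosomal RNA averaged 12.33 ± 0.24 on the knockdown arrays and 10.85 ± 0.49 on the control arrays (SD, n = 6 each), a difference of 1.48 with no overlap (exact permutation p = 0.00216). The middle and 3′ probe sets gave 0.90 and 0.63 (exact permutation p = 0.00433 and 0.0693). The 3′ minus 5′ log2 difference, which grows as RNA degrades, was -0.03 ± 0.07 on knockdown and -0.04 ± 0.04 on control arrays for GAPDH, and 0.20 ± 0.11 and 0.27 ± 0.08 for ACTB (SD, n = 6 each). The part of ribosomal or Alu-bearing RNA in the differences of SNHG3, LINC00680, NEAT1 and TUG1 was not tested.

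**Figure D5:**
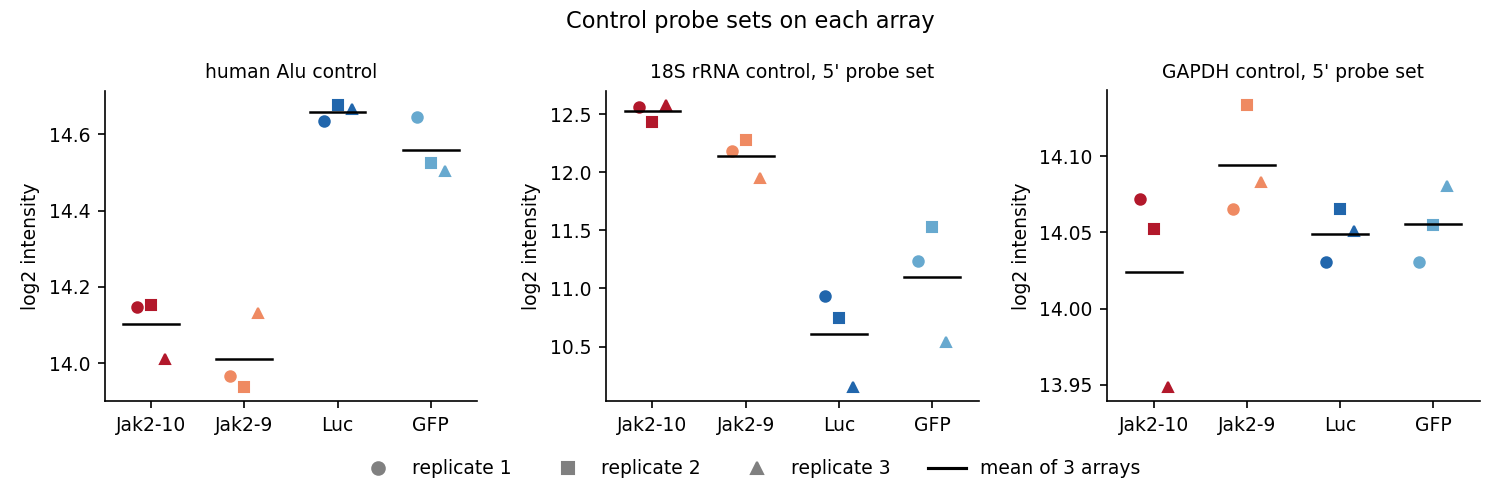
Log2 intensity (vertical axis, with its own range in each panel) of the Alu, 18S 5′ and GAPDH 5′ control probe sets on each array, by construct, with a bar at the mean of 3 arrays. Alu is lower and 18S higher on every knockdown array than on every control array, while the GAPDH values overlap.

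The labelled cell type was checked against erythroid and megakaryocytic markers. The fetal globin gene HBG1 had group means of 14.70 with Jak2-10, 14.74 with Jak2-9, 14.72 with Luc and 14.67 with GFP, and GATA1, an erythroid transcription factor, 9.97, 10.15, 9.82 and 9.89. Of 19 probe sets for 9 of 10 HEL marker genes, 0 passed in knockdown against control, where 3.16% of all probe sets did. Their summed log2 level over the 9 genes was 96.8 to 98.6 on the knockdown arrays and 96.2 to 97.3 on the control arrays. Of 20 probe sets for 11 of 12 markers of lymphoid, myeloid, epithelial, fibroblast and endothelial cells, 0 passed. In lists this short a count of 0 is near the 3.16% of all probe sets, so it does not show that the markers were unchanged. The summed level of these markers of other cells was 56.1 to 58.8 on the knockdown arrays and 55.1 to 56.9 on the control arrays. No defining marker is listed at 0, since RMA gives every probe set a positive intensity. In that list PECAM1, also a platelet-lineage gene, had group means of 10.40, 10.42, 10.16 and 10.20 in the same order of constructs, while T-cell marker CD3E had 4.38, 4.47, 4.55 and 4.49. The part of other cells in the values of SNHG3, LINC00680, NEAT1 and TUG1 was not tested.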

How the data were processed

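HEL RNA from 12 samples was measured on 1-colour Affymetrix arrays. The authors deposited 1 table of linear intensity values per probe set and array, made with RMA per the submitters' processing notes, whose version was not found. RMA removes background, brings the arrays to a common distribution and combines probes into probe sets, so a change in total RNA per cell is not visible. The deposited intensity ran from 11.2 to 36233.5, and log2 was taken here. Of 22930 probe sets, 524 control ones and 114 set apart by the prefix of their name, called mouse here, were left out. Of the 22292 tested, 19303 had 1 gene symbol, 125 several and 2864 none, and 19290 matched RefSeq by Entrez identifier. No genome build is named with the values.

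Linear models with 1 mean per construct were fitted over the 12 arrays together (limma 3.58.1, R 4.3.3; lmFit and eBayes), tested on simulated data, with Benjamini-Hochberg adjustment over the 22292 probe sets and a threshold of 0.05. Knockdown against control is the average of the Jak2-10 and Jak2-9 means minus the average of the Luc and GFP means. Exact permutation tests used scipy 1.17.1 and were two-sided. Members and lists were chosen with earlier results of these data known. Named in each list were up to 6 genes past the threshold by size, or else the 2 of lowest p at the brightest probe set, and other probe sets that passed. Named as alike were the 2 genes most correlated with each member's brightest probe set. The alternatives were other scalings, filters, controls, units, weights and blocks, and leaving out each array.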

Additional observations from a re-analysis of the deposited data

Results flagged for a closer look

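In Jak2-9 replicate 1, TUG1 lay far below the other 5 knockdown arrays at each of its 3 probe sets. The gap to the nearest array, as a share of the range of the 6 arrays, was 0.858 at 212337_at, 0.715 at 212725_s_at and 0.822 at 222244_s_at. The log2 intensity there was 6.96, 7.48 and 8.92. Of 12 groups of 6 arrays examined for the member probe sets, these 3 stood out, where chance marks about 1 in 20 groups; the 3 share 1 gene and 1 array. Against the mean of the other Jak2-9 arrays, TUG1 was 4.48-fold, 2.44-fold and 3.12-fold lower on that array, and only 2 of 22292 probe sets were further below than 212337_at. On the same array JAK2 read 7.11 at 205841_at and 9.37 at 205842_s_at, the lowest of the 12 arrays at both.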

How the results depend on the processing

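The 705 probe sets past the threshold in knockdown against control (141 higher, 564 lower) became 1210 with array weights (444 higher, 766 lower), 218 with the brightest probe set per gene (52 higher, 166 lower), 284 with the mean of all probe sets per gene (68 higher, 216 lower) and 280 with GFP alone as control (28 higher, 252 lower). Both per-gene settings test fewer features. Median centring gave 283 higher and 525 lower. Leaving out 1 array gave 489 to 944. Luc minus GFP gave 9 with array weights and 0 to 3 without 1 array. Deviations from the group means correlated at -0.143 to 0.191 over 18 pairs of same-numbered arrays, with 4 over 0.1. Differently numbered pairs ran from -0.183 to 0.173. Deviations from means of 3 arrays cannot settle whether the replicate numbers pair the samples. With the replicate block, knockdown against control gave 708 and Luc minus GFP 1. Jak2-9 against control then gave 1104 where it was 960, and Jak2-10 against control 292 where it was 308. No member probe set crossed the threshold with the block in knockdown against control. The member probe sets past the threshold were 3, those of the genes chosen on their fall, so that number is fixed by the choice and supports nothing; it was 2 with GFP alone as control, 4 with array weights, 3 to 5 without 1 array, and 5 without Jak2-9 replicate 1, the added ones being of TUG1.

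SNHG3 and LINC00680 stayed below control under every alternative, at -1.47 to -1.30 and -2.85 to -2.05. NEAT1 lay between -1.41 and -0.62, nearest to 0 with GFP alone as control. TUG1 stayed below control at every setting: 212725_s_at passed with array weights (-0.40, adjusted p = 0.00898) and without Jak2-9 replicate 1 or 3 (-0.36 and -0.71), 222244_s_at passed without Jak2-9 replicate 1, and 212337_at at none. Jak2-10 minus Jak2-9 ran from -0.15 to 0.15 for SNHG3 and from -0.0099 to 0.21 for NEAT1 when 1 array was left out, changing sign for SNHG3 without Jak2-10 replicate 1 (0.02), Jak2-10 replicate 3 (0.01) or Jak2-9 replicate 2 (0.15), and for NEAT1 without Jak2-9 replicate 2. The cause was not tested. Detection calls were not used, so the share of background in the low NEAT1 intensities was not tested. Keeping the mouse probe sets, recounting every list without Jak2-9 replicate 1, and the list of RefSeq long noncoding genes were chosen after seeing the data.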
